A study of Mus musculus with 4 samples.

Results

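The cytosolic ribosomal protein genes are the 79 genes whose symbols begin with Rps or Rpl followed by a number or the letter a, with an optional p for the stalk proteins and an optional final a, x or l, and without Rplp0. Pseudogenes and the Rps6k kinases fall outside this rule, which used names only and no measured value. The 79 genes, 31 of the small subunit (Rps) and 48 of the large subunit (Rpl), were taken from 32285 genes in the feature list. They were measured by droplet single-cell RNA sequencing of bone marrow from 6 female Tppp3CreER LSLTdTomato mice, 6 weeks old. In this line a tamoxifen-inducible Cre is driven from Tppp3 and acts on a TdTomato reporter, and all 6 mice carried both alleles. The tamoxifen mice (n = 2) received tamoxifen at postnatal days 0 and 3. The tamoxifen+rapamycin mice (n = 2) received both drugs on those days, and the late rapamycin mice (n = 2) received rapamycin and no tamoxifen at postnatal day 30, so no group was untreated. The labels list Lin-Sca+Kit+ cells, Lin-Sca-Kit+ cells and whole bone marrow as the cells loaded. One mouse of each treatment was processed on each of 2 days, pooled in 1 droplet run with a hashtag antibody for each mouse, and the replicate number below is the processing day. Treatments follow the deposited hashtag table. The sample labels number the mice the other way round for both tamoxifen treatments, and if those numbers are hashtag numbers the tamoxifen and tamoxifen+rapamycin groups below are exchanged. The late rapamycin group is the hashtags marked Ctrl in that table.

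Ribosomal proteins assemble with ribosomal RNA into the small subunit, which reads the message, and the large subunit, which joins amino acids. Their messages are abundant, and most begin with a cytosine followed by a run of pyrimidines, the TOP motif, through which the kinase mTOR controls their translation. Rapamycin inhibits mTOR complex 1. In bone marrow, loss-of-function mutations in single ribosomal protein genes cause Diamond-Blackfan anaemia, in which red cell precursors fail.

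Start-site sequences are shown for the 3 members that varied most between lineages, 2 of those that varied least, and Rps15a, the member with the largest called treatment change in the erythroid gate. Each runs 5′ to 3′ from 15 bases before to 15 bases after the RefSeq start on GRCm38.p6. Capitals mark the pyrimidine tract, defined as the longest run of C followed by at least 4 of C or T that begins within 10 bases of the start.
Rps2: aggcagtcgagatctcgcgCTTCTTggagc
Rps27l: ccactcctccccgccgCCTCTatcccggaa
Rpl14: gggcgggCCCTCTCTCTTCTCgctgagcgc
Rps9: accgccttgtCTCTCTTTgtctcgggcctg
Rps27: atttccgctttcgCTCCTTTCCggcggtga
Rps15a: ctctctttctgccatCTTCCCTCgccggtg
The windows lie at chr17:24720048-24720077 (plus strand) for Rps2, chr9:66946071-66946100 (plus) for Rps27l and chr9:120571502-120571531 (plus) for Rpl14. Those of Rps9, Rps27 and Rps15a lie at chr7:3704026-3704055 (plus), chr3:90213634-90213663 (minus) and chr7:118116133-118116162 (minus). All 6 tracts differ in length, letters or both, and the Rps15a tract begins at the listed start itself. RefSeq promoters were matched for 59 of the 79 members. Such a tract was found in 37 of the 59 (62.7%), against 32.6% of 27025 genes with a listed promoter. A gene was counted where any of its listed promoters matched. Other letters were sought in the whole 300-base window, from 250 bases before to 50 after the start and on both strands. There CCGGAAG was found for 42.4% of the 59 members against 9.93% of all these genes, AAGATGGCG for 5.08% against 1.64%, and TATAAA for 8.47% against 15.7%. A match of letters is a description and not a binding site. Among the tested members, the tract did not sort genes that varied between lineages from those that did not. The range of mean log2 level over lineages had a median of 2.39 in the 34 with a tract and 2.31 in the 22 without, and both the largest and the smallest range belonged to members with one.

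The deposited matrices hold 46467 cell barcodes with 113535036 gene UMIs (unique molecular identifiers, 1 per captured transcript) on day 1 and 115505329 on day 2. After the cell filter, 37065 cells carried 1 hashtag, and 31310 of these fell in 1 of 14 marker gates built from marker genes. The members took 15.3% to 17.4% of each mouse's gene UMIs. Gates, and not sorted populations, define the lineages below: a cell entered a gate with UMIs of at least 3 to 5 genes of its list, a rule set after the data had been seen and one that favours deeper cells. By the gate rule itself, own-list markers were present in every gate and mouse, which is no check of identity. The HSC list gave 2786 to 3702 CPM (UMIs of a gene per 1000000 UMIs of its library sum) in the HSC gate. In that gate the markers of MEP summed to 1183 to 1679 CPM, those of plasmacytoid dendritic cells to 665 to 869 and those of multipotent progenitors to 577 to 767. Cells with a Flt3 UMI were kept out of the HSC gate. Flt3 is on the multipotent progenitor list, so the sum of that list is lowered there by construction. Pro-B markers there summed to 36.2 to 105 CPM and T-cell markers to 8.71 to 17.4 CPM, with 2 of the 9 T-cell markers at 0. CPM of markers, hemoglobin and undetected members used plain library sums. For the other members, CPM used library sums scaled by TMM, over all tested gates in lineage comparisons and within each gate in treatment comparisons. These kinds of CPM are not on the same scale. The 2 days shared 126 barcodes among their separate runs.

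Ribosomal protein transcripts made up the largest share of the transcriptome in erythroid progenitors and the smallest in mature neutrophils. The erythroid gate gave 21.2% ± 0.744 of gene UMIs (SD, n = 6 mice), with a range of 20.4% to 22.2%. Neutrophil progenitors followed at 19.0% ± 0.889, then megakaryocyte-erythroid precursors (MEP) at 16.7% ± 0.170 and multipotent progenitors (MPP) at 16.5% ± 0.398. The gate for haematopoietic stem cells (HSC) stood at 15.4% ± 0.549. Monocytes gave 12.4% ± 0.721, pro-B and pre-B cells 11.9% ± 0.695, myelocytes 3.85% ± 0.730 and neutrophils 2.91% ± 0.368. Every one of the 8 gates differed from the HSC gate in the same direction in 6 of 6 mice. The exact paired permutation test over 6 mice (two-sided) gave p = 0.03125 for each, which is the smallest it can give, and 0.03125 after Benjamini-Hochberg adjustment over the 8. The differences were +5.78 percentage points for erythroid cells, +3.62 for neutrophil progenitors, +1.28 for MEP and +1.10 for MPP. They were −2.99 for monocytes, −3.53 for pro-B cells, −11.6 for myelocytes and −12.5 for neutrophils. Along the order of levels, 2 neighbouring pairs did not differ beyond their spread: MEP and MPP (0.182 points, higher in 5 of 6 mice, adjusted exact p = 0.2143) and monocytes and pro-B cells (0.541 points, 4 of 6 mice, adjusted exact p = 0.375). Each of the other neighbours had an adjusted exact p of 0.04167.

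**Figure D1:**
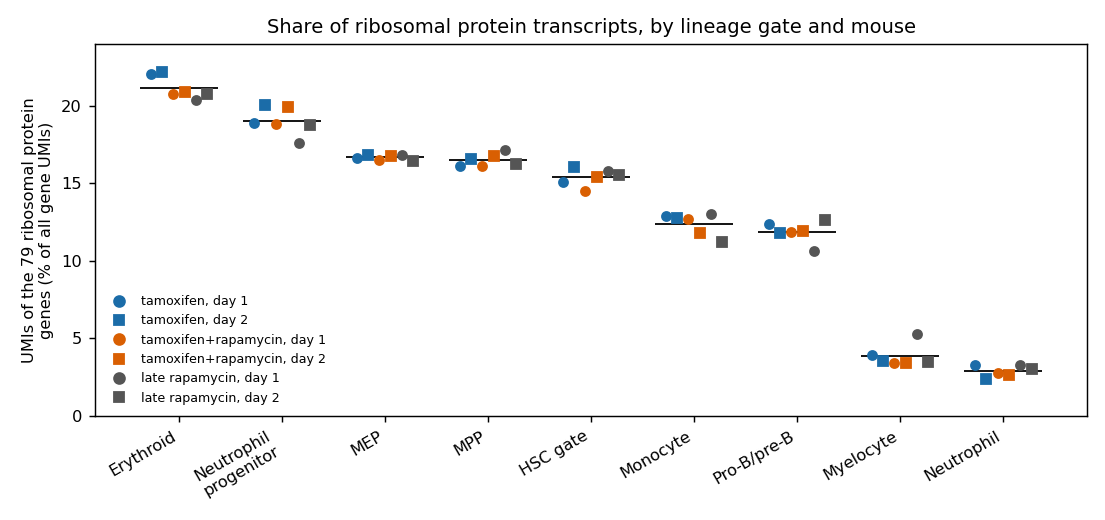
Percent of all gene UMIs in the 79 ribosomal protein genes (y axis) for 9 lineage gates (x axis), with 1 point per mouse, coloured by treatment and shaped by processing day, and a bar at the mean. The erythroid points sit between 20.4% and 22.2% and the neutrophil points between 2.38% and 3.30%; 1 myelocyte point, late rapamycin replicate 1, stands at 5.30%.

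Depth differed between the gates too, without following the order of the shares throughout. Over mice, the median UMIs per cell ranged from 9251 to 14568 in the erythroid gate, 6700 to 10500 in neutrophil progenitors, 2398 to 3997 in the HSC gate and 1248 to 2948 in neutrophils. Averaged over mice, myelocytes (2781 UMIs) were close in depth to monocytes (2846) and the HSC gate (3102) with a far smaller share, and pro-B cells (1643) were as shallow as neutrophils (1629) with a larger one. In UMIs of members per cell, the erythroid gate held 2458 ± 548 (SD, n = 6), the HSC gate 541 ± 113 and neutrophils 53.9 ± 24.8. Less RNA per cell and a smaller share of it in ribosomal proteins are thus both seen in neutrophils. Granule genes took part of the total in myelocytes, where the 10 myelocyte markers alone gave 103800 to 137400 CPM.

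Split by gene, all 76 testable members were higher in erythroid cells and in neutrophil progenitors than in the HSC gate, and all 76 had a fold below 0 in myelocytes and in neutrophils. Rpl3l, Rpl10l and Rpl39l did not pass the filter on low counts. With edgeR's quasi-likelihood test (mouse as a block, adjusted p under 0.05), 76 members were called higher in the erythroid gate, where 38.5% of all genes tested were called higher and 44.4% lower. The members' median log2 fold change was +0.78, against −0.12 over all genes. For neutrophil progenitors 76 were called higher (36.7% of all genes), with a median of +0.62 against −0.01. In myelocytes 74 were called lower (42.3% of all genes), with a median of −0.97 against −0.11. In neutrophils 74 were called lower (48% of all genes), with a median of −1.46 against −0.55.

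The other 4 gates lay closer to the HSC gate. In MEP 11 members were called higher and 0 lower, where 13.8% of all genes were called higher and 15.7% lower; the members' median was +0.15. In MPP 9 were called higher and 0 lower (14.3% and 13.5% of all genes), with a median of +0.18. These 2 counts moved with single mice: without late rapamycin replicate 1 they were 49 in MEP and 64 in MPP (63.6% and 83.1% of the members, where 32.6% and 34.4% of all genes were called). Without any one of the other 5 mice they ran from 2 to 6 in MEP and from 1 to 13 in MPP, where 21.5% to 25.7% of all genes were called. In monocytes 18 were called higher and 8 lower (34.9% and 33.5%), and in pro-B cells 3 higher and 30 lower (34.1% and 32.6%). With plain UMI totals in place of TMM scaling the monocyte split became 2 higher and 56 lower, and the pro-B split 1 higher and 58 lower.

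Scaling sets the size of these folds. Under plain totals the median over all genes itself fell by 0.47 in the erythroid gate, by 0.33 in neutrophil progenitors, by 1.20 in myelocytes and by 1.57 in neutrophils (log2, against the HSC gate). The members' medians were then +0.42, +0.30, −2.04 and −2.46, with 67 and 63 members called higher in the first pair of gates and 76 called lower in each of the last pair.

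**Figure D2:**
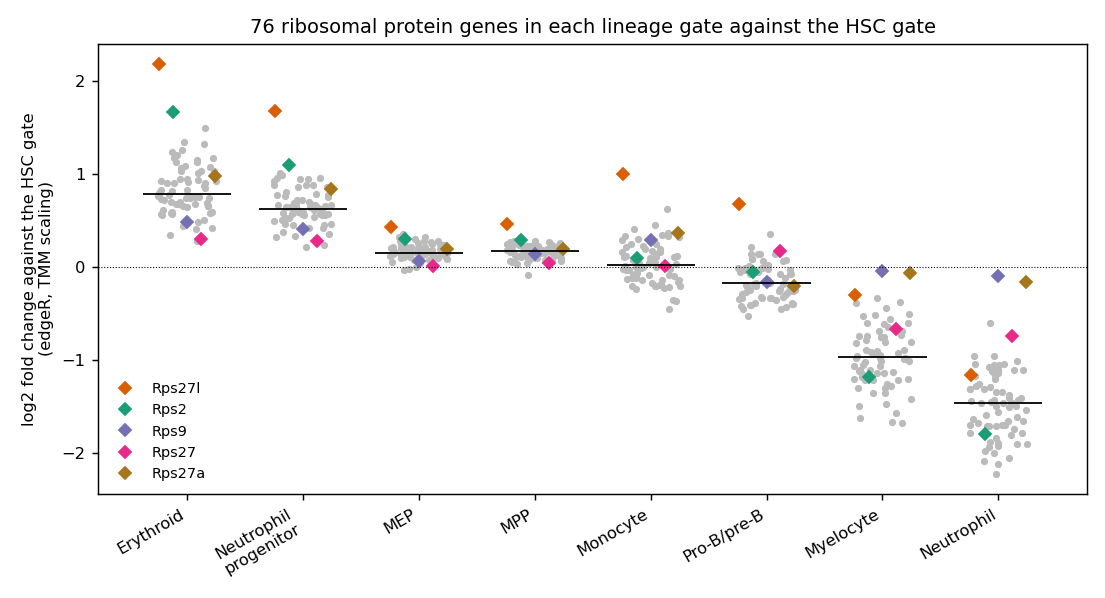
Log2 fold change of each of the 76 tested members against the HSC gate (y axis; edgeR, TMM scaling) in 8 lineage gates (x axis), with a bar at the median of the members and 5 genes coloured. The medians run from +0.78 in the erythroid gate to −1.46 in neutrophils; Rps27l stands above the others in the erythroid gate at +2.18, and Rps9 and Rps27a stay near 0 in myelocytes and neutrophils.

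Among members, the range of mean log2 CPM over the 9 gates ran from 0.66 to 3.47, with a median of 2.34. The highest gate was the erythroid one for 70 members and the neutrophil progenitor one for 6, and the lowest was the neutrophil gate for 73. Rps2, a small-subunit protein near the path of the message, had the widest range, 3.47. In the 6 mice it ran from 1430 to 1582 CPM in the HSC gate, from 4484 to 4992 in the erythroid gate and from 274 to 569 in neutrophils, and these 3 ranges did not overlap. Its log2 fold change against the HSC gate was +1.67 ± 0.15 (SE) in the erythroid gate (edgeR adjusted p = 4.93e-15) and −1.79 ± 0.16 in neutrophils (adjusted p = 2.11e-14). In myelocytes 5 mice gave 464 to 548 CPM and late rapamycin replicate 1 gave 1600.

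Rps27l, a paralog of Rps27 known as a p53 target, had the next widest range, 3.39. Its level was 125 ± 21.1 CPM (SD, n = 6) in the HSC gate, 560 ± 26.9 in the erythroid gate and 402 ± 91.0 in neutrophil progenitors. Of all members it had the largest erythroid fold, +2.18 ± 0.09 on the log2 scale (edgeR adjusted p = 1.48e-28), and it was also higher in monocytes (251 ± 63.5 CPM, +1.01). In myelocytes and neutrophils it was lower than in the HSC gate, by −0.30 and −1.16. Other members of wide range were Rpl14 (3.28), Rpl12 at the base of the stalk (3.02), Rps18 (3.00), Rpl3 near the peptidyl transferase centre (3.00) and Rpl36a (2.94). Among these, Rpl3 had the lowest neutrophil fold, −2.22 ± 0.12, from 1434 ± 55.4 CPM in the HSC gate to 308 ± 70.1.

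A few members kept a level in myelocytes and neutrophils close to that in the HSC gate. Rps9, a small-subunit protein near the decoding site, had the narrowest range, 0.66. In the HSC gate it ran from 1862 to 2081 CPM, and in neutrophils 5 mice gave 1474 to 1702 while late rapamycin replicate 1 gave 2982. Thus 5 mice lay below their HSC gate range and 1 above it, and the fold was −0.10 ± 0.11 (edgeR adjusted p = 0.4075). In myelocytes the same mouse gave 3086 CPM and the others 1602 to 1786 (−0.04 ± 0.10, adjusted p = 0.7062). Rps27a, which is made as a fusion with ubiquitin, gave 2097 ± 126 CPM in the HSC gate and 1879 ± 304 in neutrophils (−0.16 ± 0.09, adjusted p = 0.1069). Both rose in the erythroid gate, Rps9 by +0.48 and Rps27a by +0.98. Rps27 (range 1.05) and Rpl37 (range 1.53) were lower in neutrophils by −0.75 and −0.60, smaller steps than the members' median of −1.46. Under plain totals Rps9 and Rps27a were also called lower in both gates.

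By role, the 2 stalk proteins that recruit elongation factors moved with the rest. Rplp1 rose from 2724 ± 166 CPM in the HSC gate to 5948 ± 398 in the erythroid gate (+1.13 ± 0.13) and stood at 851 ± 211 in neutrophils (−1.69). Rplp2 gave +0.87 and −1.31. Rpl5 and Rpl11, which carry the 5S ribosomal RNA and bind Mdm2, gave +0.68 and +0.92 in the erythroid gate and −1.92 and −1.47 in neutrophils. Rps6, the substrate of S6 kinase, gave +0.70 and −1.71, and Rpsa, also described as a laminin receptor, gave +1.05 and −1.75. Rpl13 had the highest mean CPM of all members over the gates, 3412, and went from 3508 ± 162 in the HSC gate to 5844 ± 256 in the erythroid gate (+0.74) and 1011 ± 262 in neutrophils (−1.80). All of these folds passed the edgeR test.

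Of the paralog pairs, the copies known from testis and muscle were close to undetected. Over the 162282184 gene UMIs of all gated cells, Rpl3l had 134 UMIs against 310185 of Rpl3, and 41 of the 134 were in pro-B cells. Rpl39l had 121 against 250177 of Rpl39, of which 40 were in neutrophil progenitors and 46 in erythroid cells. No UMI of Rpl10l was counted against 228152 of Rpl10, which allows a level of up to 0.0185 CPM. Rps27l was the exception, with 54487 UMIs against 104638 of Rps27. Rps4x gave 452833, and no Rps4l was among the features. Reads shared with processed pseudogenes limit these counts: the annotation names 291 such copies by the suffix -ps, of which 5 are in the feature list, so reads from such copies cannot be told apart here. Rpl10 was among the 18 members called higher in monocytes than in the HSC gate (1425 ± 99.0 against 919 ± 37.1 CPM, +0.63 ± 0.12, edgeR adjusted p = 3.53e-06). The members' median there was +0.03, and Rps27l had a larger fold, +1.01.

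The 19 members mutated in Diamond-Blackfan anaemia followed the whole family. All 19 were called higher in the erythroid gate (median +0.74) and in neutrophil progenitors, and all 19 were called lower in neutrophils (median −1.54). Of all genes, 38.5% were called higher in the erythroid gate, 36.7% higher in neutrophil progenitors and 48% lower in neutrophils. Rps19, the member most often mutated in that disease, rose from 2002 ± 97.5 CPM in the HSC gate to 3026 ± 157 in the erythroid gate (+0.60 ± 0.12).

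Other genes of protein synthesis were mostly called higher in the erythroid and neutrophil progenitor gates and lower in neutrophils, like the members, while the lists' counts were unlike each other in myelocytes, monocytes and pro-B cells. All 34 ribosome biogenesis genes were called higher in the erythroid gate (median +1.36) and 31 in neutrophil progenitors. In neutrophils 32 of the 34 were called lower (median −2.04), in myelocytes 31 (median −1.70) and in monocytes 20, with 4 higher (median −0.53). The 78 mitochondrial ribosomal protein genes, whose products serve the separate ribosome of mitochondria, were all called higher in the erythroid gate (median +1.50). They were called higher in 57 cases in pro-B cells and in 47 in monocytes, gates where the cytosolic members had medians of −0.17 and +0.03. In neutrophils 59 mitochondrial genes were called lower and 8 higher (median −1.17), and in myelocytes 35 lower and 22 higher (median −0.16, against −0.97 for the cytosolic members). Of 22 translation factors and other genes with TOP messages, 20 were called higher in the erythroid gate (median +0.95) and 22 lower in neutrophils (median −1.46). The 8 ribosomal proteins that the symbol rule does not take, such as Rplp0 and Rack1, were called higher in 8 of 8 cases in the erythroid gate and lower in 7 of 8 in neutrophils. Of all genes, 38.5% were called higher in the erythroid gate and 36.7% in neutrophil progenitors. In neutrophils 48% were called lower and 30.8% higher, and in myelocytes 42.3% lower and 38% higher. Monocytes had 33.5% of all genes called lower and 34.9% higher, and pro-B cells 34.1% higher.

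Within a gate, cells in division had a lower share of ribosomal protein transcripts in MPP and MEP and a higher one in myelocytes. Division cells were those with UMIs of at least 2 of 10 division genes, and were compared with cells that had none, in the 4 gates with 50 such cells of each kind in every mouse. In myelocytes the share was 4.93% ± 0.841 against 2.74% ± 0.472 (SD, n = 6), higher in 6 of 6 mice (adjusted exact permutation p = 0.04167). In MPP it was 16.2% against 16.7%, higher in 0 of 6 mice, and in MEP 16.3% against 17.1%, also 0 of 6 (adjusted exact permutation p = 0.04167 for each). In the HSC gate it was 15.02% against 15.5%, higher in 1 of 6 mice (adjusted exact permutation p = 0.09375). Division cells were deeper: the median UMIs were 5284 against 2545 in myelocytes, 5882 against 3242 in MPP and 5390 against 3015 in MEP. The part of depth in these differences was not tested.

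Between treatments, the share in the HSC gate was lower in tamoxifen+rapamycin than in tamoxifen mice on both days, by less than the spread between mice of one group. The tamoxifen mice gave 15.1% and 16.1%, the tamoxifen+rapamycin mice 14.5% and 15.4% and the late rapamycin mice 15.8% and 15.5%. The tamoxifen mice overlap both other groups, while the tamoxifen+rapamycin mice lie below the late rapamycin mice. Tamoxifen+rapamycin minus tamoxifen was −0.60 points (−0.57 and −0.63 within the 2 days, exact permutation p = 0.667), and late rapamycin minus tamoxifen was +0.10 (+0.73 and −0.53, exact permutation p = 1). Tamoxifen+rapamycin minus late rapamycin was −0.70 (−1.30 and −0.10, exact permutation p = 0.333). With 2 mice against 2, the smallest two-sided p this permutation test, which takes no account of the day, can give is 0.333, so it cannot pass 0.05 for any share difference between treatments. Whether same-group mice came from separate litters is not stated, and the comparisons against tamoxifen share the tamoxifen mice. Late rapamycin mice differed from tamoxifen mice in rapamycin, in tamoxifen and in the day of injection. They differed from tamoxifen+rapamycin mice in tamoxifen and in that day. In the late rapamycin comparisons these factors cannot be told apart.

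Averaged with equal weight over the 9 gates, the share was 13.5% ± 0.0713 in tamoxifen mice, 13.2% ± 0.164 in tamoxifen+rapamycin mice and 13.2% ± 0.148 in late rapamycin mice (SD, n = 2). The difference from tamoxifen was −0.35 points for tamoxifen+rapamycin (−0.41 and −0.28 within days) and −0.29 for late rapamycin (−0.14 and −0.45), each with the smallest exact permutation p, 0.333. The 2 rapamycin groups differed by −0.0543 points, with opposite signs on the 2 days (−0.27 and +0.17, exact permutation p = 0.667).

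The erythroid gate showed the clearest separation. Its share was 22.1% and 22.2% in the tamoxifen mice, 20.8% and 20.9% in the tamoxifen+rapamycin mice and 20.4% and 20.8% in the late rapamycin mice. Both rapamycin groups lay below both tamoxifen mice, by 1.24 to 1.68 points within a day. The differences were −1.26 for tamoxifen+rapamycin and −1.53 for late rapamycin, each with an exact permutation p of 0.333. In neutrophil progenitors the late rapamycin mice (17.6% and 18.8%) lay below the tamoxifen mice (18.9% and 20.1%) without overlap, while the tamoxifen+rapamycin mice (18.8% and 19.9%) did not. The within-day differences of late rapamycin from tamoxifen were −1.24 and −1.29 points, but across days the nearest mice stood at 18.77% and 18.88%. Late rapamycin replicate 1, the lowest mouse, had 1430 cells in this gate against 372 to 701 in the others.

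Gene by gene, tamoxifen+rapamycin against tamoxifen gave 4 member calls over the 9 gates, all lower and all in the erythroid gate, with 0 higher. Over all genes and gates 0.167% were called (0.0759% lower and 0.0908% higher), and 0.722% in the erythroid gate. All 76 members had a fold below 0 in that gate (median −0.11, all genes −0.0006), and in 75 both tamoxifen+rapamycin mice were below both tamoxifen mice, as were 20.7% of all genes. Rps15a, a small-subunit protein, fell by 0.23 ± 0.04 on the log2 scale (edgeR adjusted p = 0.01261). Rps12 fell by 0.18 ± 0.03 (edgeR adjusted p = 0.02031), Rpl32 by 0.18 ± 0.03 (edgeR adjusted p = 0.02999) and the stalk protein Rplp1 by 0.16 ± 0.03 (edgeR adjusted p = 0.03663). Of the pairs that did not pass, Rps18 in the erythroid gate had the smallest p (−0.16, edgeR adjusted p = 0.05708). The 4 calls were lost without either tamoxifen mouse or without tamoxifen+rapamycin replicate 2 (0 calls each), while 64 were made without late rapamycin replicate 1 and 64 without replicate 2. In each of the last pair of fits 1.72% of all genes were called, against 9.33% and 9.34% of the members' tests. Without the day as a block there were 0 calls (0.0667% of all genes).

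Late rapamycin against tamoxifen gave 16 member calls lower and 1 higher, where 0.409% of all genes over the gates were called (0.238% lower and 0.171% higher). In the erythroid gate 15 members were called lower (1.39% of all genes called) and 75 of 76 had a fold below 0, with a median of −0.13 against −0.002 over all genes. Both late rapamycin mice were below both tamoxifen mice in 72 of the 76, as were 21.4% of all genes. Rps15a had the largest change: the tamoxifen mice gave 3026 and 2934 CPM, the tamoxifen+rapamycin mice 2626 and 2456 and the late rapamycin mice 2220 and 2208. The 3 groups did not overlap, and late rapamycin was lower by −0.43 ± 0.04 on the log2 scale (edgeR adjusted p = 8.396e-05). Rps12 gave 6097 and 6072 CPM in tamoxifen mice, 5390 and 5321 in tamoxifen+rapamycin mice and 5072 and 5285 in late rapamycin mice (−0.23 ± 0.03, edgeR adjusted p = 0.002815). Here both rapamycin groups were below the tamoxifen mice, and were themselves apart. Rplp1 gave 6595 and 6518 CPM in tamoxifen mice, 5986 and 5767 in tamoxifen+rapamycin mice and 5648 and 5667 in late rapamycin mice (−0.21 ± 0.03, edgeR adjusted p = 0.003751). The next 7 by size were Rps26 of the message exit channel (−0.21), Rps23 of the decoding centre (−0.21), Rps18 (−0.19), Rpl13a (−0.19), Rpl12 (−0.19), Rpl39 of the exit tunnel (−0.19) and Rpl32 (−0.18). The remaining 5, Rps13, Rpsa, Rpl17, Rps19 and Rps20, fell by 0.16 to 0.18. These 17 calls became 2 without tamoxifen replicate 1, 1 without tamoxifen replicate 2, 31 and 29 without tamoxifen+rapamycin replicate 1 or 2, 54 without late rapamycin replicate 1 and 227 without replicate 2, and 4 without the day as a block. Calls over all genes moved as well, to 1.78% without late rapamycin replicate 1 (7.87% of the members' tests), 10.6% without replicate 2 (33.1%) and 0.120% without the block (0.584%).

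**Figure D3:**
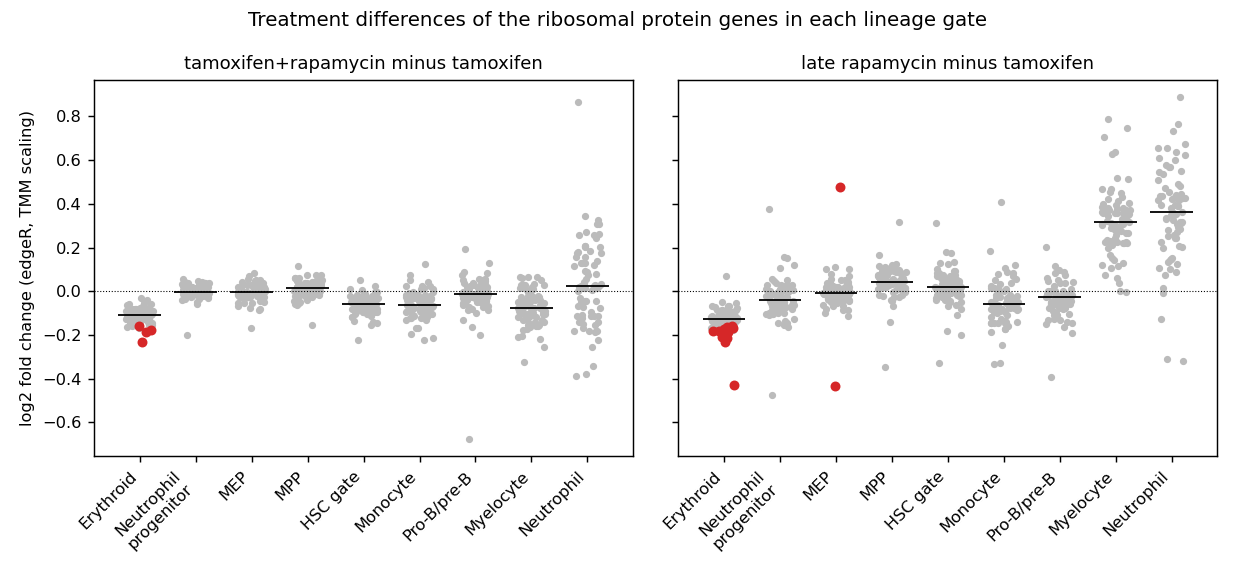
Log2 fold change of each tested member (y axis; edgeR, TMM scaling) in 9 lineage gates (x axis), tamoxifen+rapamycin (left) and late rapamycin (right) against tamoxifen, with a bar at the median and red points for an adjusted p under 0.05. In the erythroid gate all 76 points lie below 0 in the left panel and 75 of 76 in the right (medians −0.11 and −0.13). In late rapamycin the myelocyte and neutrophil medians are +0.32 and +0.36 with no red point.

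The lower erythroid folds kept their direction under other scalings: with plain totals 76 of 76 members were below 0 in tamoxifen+rapamycin (median −0.08) and 75 of 76 in late rapamycin (median −0.09). Other gene lists in this gate were split in direction. Of 34 ribosome biogenesis genes, 22 were above 0 in tamoxifen+rapamycin and 28 in late rapamycin, and of 78 mitochondrial ribosomal protein genes 46 and 65 were above 0; none of either list was called. Of 22 TOP message genes 15 and 17 were below 0, with 0 and 3 called lower, and of the 8 ribosomal proteins outside the symbol rule 1 and 2 were called lower. All 19 Diamond-Blackfan anaemia genes were below 0 in both comparisons, with 1 and 3 called. Of all genes in this gate, 0.722% and 1.39% were called.

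Maturation markers also differed between the erythroid gates of the mice, and their part in the result was not tested. For hemoglobin transcripts the tamoxifen mice gave 1431 and 940 CPM, the tamoxifen+rapamycin mice 1898 and 2481 and the late rapamycin mice 888 and 1235. The tamoxifen+rapamycin mice were thus the highest and the other groups overlapped. Car1 is an early erythroid carbonic anhydrase, for which the tamoxifen mice gave 3339 and 3591 CPM, the tamoxifen+rapamycin mice 2837 and 3126 and the late rapamycin mice 2963 and 2565. Like the members it was highest in the tamoxifen mice, without overlap. Cells with at least 2 division genes were 96.4% and 98.0%, 95.3% and 94.6%, and 97.1% and 95.8% in the same order. Neutrophil markers summed to 41.7 to 123 CPM, myelocyte markers to 46.5 to 123 CPM and macrophage markers to 1.02 to 6.14 CPM. In erythroid cells with no hemoglobin UMI the shares were 22.0% and 22.1% in the tamoxifen mice, 20.7% and 20.9% in the tamoxifen+rapamycin mice and 20.2% and 20.8% in the late rapamycin mice. In those with such a UMI they were 22.1% and 22.2%, 20.8% and 20.9%, and 20.6% and 20.8%. In both classes the tamoxifen mice were the highest, without overlap. In cells without hemoglobin 7 members were called lower in tamoxifen+rapamycin and 25 in late rapamycin (0.485% and 0.992% of all genes called), and in cells with it 0 and 3 (0.456% and 0.760%).

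Beyond the erythroid gate, the calls against tamoxifen were those of Rps15a and Rps27l in MEP. There Rps15a gave 2517 and 2480 CPM in tamoxifen mice, 2195 and 2260 in tamoxifen+rapamycin mice and 1860 and 1838 in late rapamycin mice. The groups did not overlap, and late rapamycin was lower than tamoxifen by −0.43 ± 0.05 on the log2 scale (edgeR adjusted p = 6.457e-07; 1.27% of all genes called in MEP). In the HSC gate it gave 2238 and 2392, 1922 and 2043, and 1896 and 1793 CPM in the same order. In neutrophil progenitors it gave 2778 and 2887, 2415 and 2513, and 2053 and 2024 CPM. For Rps15a, no gate other than MEP and the erythroid one passed the test. CPM in the treatment comparisons are scaled within each gate, so they cannot be set against CPM of the lineage comparisons. All mice were ordered tamoxifen over tamoxifen+rapamycin over late rapamycin in 6 of 9 gates for Rps15a, in 4 for Rps13 and in at most 2 for any other member. No share of all genes in that order is available, so those gate counts are a description only. Late rapamycin mice were both below the tamoxifen mice in 7 of 9 gates for Rps15a and for Rps13, the exceptions being myelocytes and neutrophils for Rps15a. Of all genes tested, 15.6% to 21.4% were as low by gate, 19.8% in the HSC gate. Rps13 gave 1804 and 1819 CPM in the tamoxifen mice of the HSC gate, 1593 and 1667 in the tamoxifen+rapamycin mice and 1574 and 1580 in the late rapamycin mice (late rapamycin minus tamoxifen −0.20, edgeR adjusted p = 0.3796). Both genes lie on the minus strand of chromosome 7 (GRCm38), Rps13 at chr7:116331505-116334195 and Rps15a at chr7:118104372-118116188.

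Rps27l in MEP gave 213 and 164 CPM in tamoxifen mice, 194 and 191 in tamoxifen+rapamycin mice and 279 and 241 in late rapamycin mice. The late rapamycin mice were the highest, and their fold against tamoxifen was +0.48 ± 0.10 (edgeR adjusted p = 0.009406). That call was lost without tamoxifen replicate 2 (edgeR adjusted p = 0.3825) and without the day as a block (edgeR adjusted p = 0.2917). Late rapamycin mice were both above the tamoxifen mice in 4 of 9 gates for Rps27l, as were 14.2% to 20.3% of all genes by gate.

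**Figure D4:**
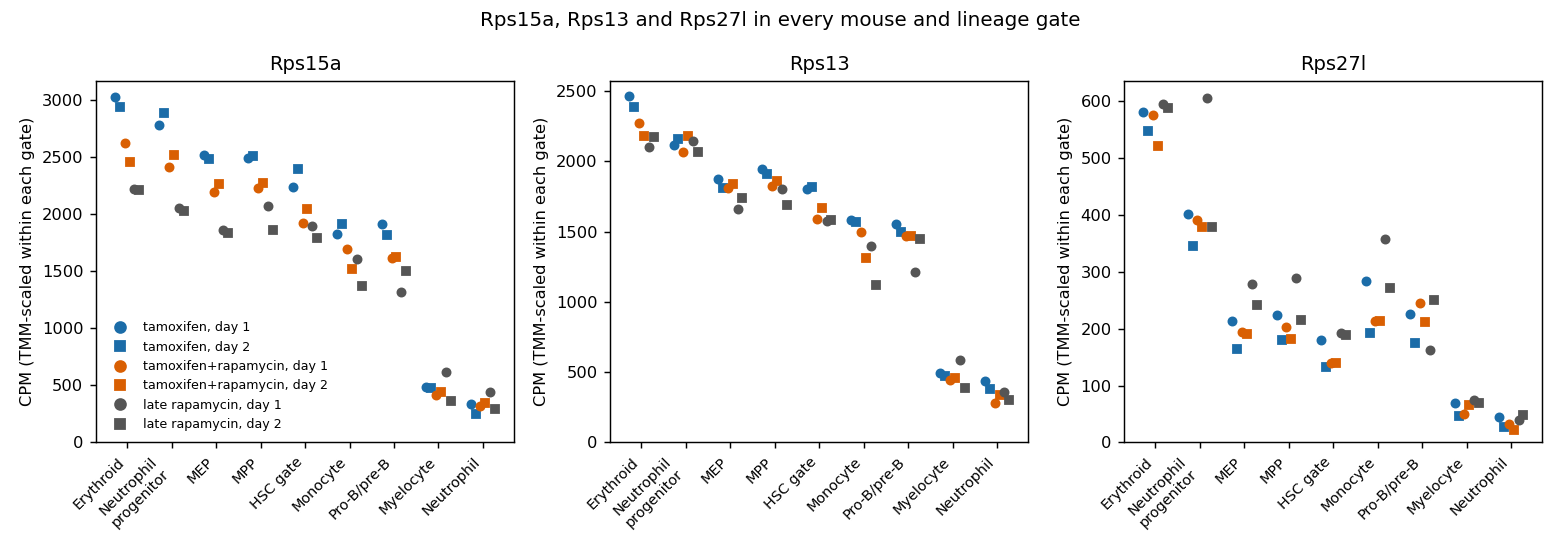
CPM (y axes, from 0; TMM-scaled within each gate) of Rps15a, Rps13 and Rps27l in 9 lineage gates (x axes), with 1 point per mouse, coloured by treatment and shaped by day. In MEP the Rps15a points step down from 2517 and 2480 to 1860 and 1838 CPM between tamoxifen and late rapamycin mice, and the Rps27l points rise to 279 and 241.

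Between the 2 rapamycin groups 3 member calls were made, 2 higher and 1 lower in tamoxifen+rapamycin, where 0.314% of all genes over the gates were called (0.201% higher and 0.113% lower), 1.33% in MEP and 0.516% in the erythroid gate. Rps15a was higher in MEP (+0.27, edgeR adjusted p = 0.00193) and in the erythroid gate (+0.20, edgeR adjusted p = 0.03861), and Rps27l was lower in MEP (−0.43, edgeR adjusted p = 0.02513). The next smallest p were those of Rps27l in MPP (−0.37, edgeR adjusted p = 0.1391) and the HSC gate (−0.45, edgeR adjusted p = 0.1597) and of Rps24 in MEP (+0.12, edgeR adjusted p = 0.1947). The count was 13 without late rapamycin replicate 1 (1.90% of the members' tests and 1.76% of all genes), 170 without its replicate 2 (24.8% and 9.89%), 1 without tamoxifen+rapamycin replicate 1 and 0 without the day as a block.

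In the HSC gate no member was called in any treatment comparison (edgeR; of all genes there, 0.0451% were called in tamoxifen+rapamycin against tamoxifen, 0.243% in late rapamycin against tamoxifen and 0.234% between the rapamycin groups). At an unadjusted p under 0.05, 2 were lower in tamoxifen+rapamycin against tamoxifen, 3 higher and 3 lower in late rapamycin against tamoxifen, and 3 lower in tamoxifen+rapamycin against late rapamycin. The shares of all genes at that p were 5.52%, 10.3% and 12.8% in the same order, above the members' shares. Tamoxifen+rapamycin was below tamoxifen for 72 of 76 members (median −0.06), and 13 of the 76 had no overlap between mice, where 17.3% of all genes were as low. In neutrophils late rapamycin gave folds above 0 for 72 members (median +0.36) and in myelocytes for 74 (median +0.32), with none called in either gate (0% of all genes). The myelocyte median was +0.61 on day 1 and −0.03 on day 2, and late rapamycin replicate 1, the day 1 mouse, had 1298 myelocytes against 370 to 467 in the others. Its median mitochondrial percentage there was 0.557 against 0.237 to 0.271. The same mouse stood apart in neutrophils, with a median of 2948 UMIs against 1248 to 1446 and a mitochondrial percentage of 0.459 against 0.0915 to 0.0985. Myelocyte markers in the neutrophil gate summed to 21880 to 64460 CPM over the mice, and their part in these folds was not tested.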

How the data were processed

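Pooled gene expression libraries of 2 days and their hashtag libraries were analysed (Chromium Single Cell 3′, v3, per the labels' protocols). The deposited matrices hold raw UMI counts per gene and barcode. They were made with Cell Ranger, version 7.0.0 per the submitters' processing notes and 8.0.1 per the file headers, on mm10; whether introns were counted is not given in the sources used here. Hashtags were called at 3.09 SD above background, keeping barcodes with exactly 1 (5377 had several, 332 none), which also removed doublets between mice; an estimated 2688 doublets within a mouse remain. Cells had at least 500 genes, 1000 UMIs and at most 10% mitochondrial UMIs. A gate took cells with UMIs of at least 3 to 5 genes of a marker list, and the HSC gate took no cell with a Flt3 UMI. Left out were 413 cells with marker sets of 2 families, 1813 tied and 3529 without a gate. UMIs were summed per mouse and gate with at least 50 cells in every mouse.

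Sums were tested with edgeR 4.0.16 (R 4.3.3; TMM, filterByExpr, quasi-likelihood, Benjamini-Hochberg, threshold 0.05) with day and treatment, or mouse and lineage, as terms. The fits were tested on simulated data. Shares were compared by exact permutation (scipy 1.17.1). The floor for a count of 0, 3 UMIs, covers only counting error. Where the labels name no separate litters, p-values measure the spread between these mice. The replicate number is the processing day, which pairs the mice by the labels; deviations of same-day mice correlated at 0.000781 to 0.271 over 27 pairs. Alternatives were DESeq2 1.42.0, plain totals, totals outside the members, no count filter, no day block, a stricter gate and cell filter, another hashtag call, cells without division genes, and each mouse left out.

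Members, gene lists and tests were chosen with earlier results of these data known. In treatment comparisons, called members whose sign was alike on both days are named, up to 10 per direction, or the 6 pairs of smallest p where fewer than 6 were called. Between lineages, the 8 widest and 4 narrowest ranges, the highest mean and listed roles are named. Some members these rules select are not reported here. Positions are from GENCODE M21 (GRCm38), where all 79 members matched, and start sequences from RefSeq (GRCm38.p6). Rpl19 overlaps Gm11629, listed in the features, on its strand.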

Additional observations from a re-analysis of the deposited data

Results flagged for a closer look

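In the myelocyte gate, late rapamycin replicate 1 stood apart from the other 5 mice with a ribosomal protein share of 5.296%, against 3.44% to 3.92%; its gap to the next mouse was over the limit of Dixon's test for 6 values. Chance alone puts about 1 in 20 groups over that limit, and 9 gates were looked at. That mouse had 1298 myelocytes with a median of 3968 UMIs, against 370 to 467 cells and 2011 to 2966 UMIs in the others, and a share taken as the median over cells of 3.88% against 2.14% to 2.56%. The part of depth in this was not tested.

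Some gates moved in opposite directions on both days under the same contrast, and the difference between them was not tested. For late rapamycin minus tamoxifen, the share in neutrophils differed by 0.3394 points, in neutrophil progenitors by -1.266 and in erythroid cells by -1.532. The neutrophil difference was only 0.01 on day 1, against 0.67 on day 2. For tamoxifen+rapamycin minus late rapamycin, the share differed by 1.17 in neutrophil progenitors and 0.2723 in erythroid cells, but by -0.6997 in the HSC gate, -0.9447 in myelocytes and -0.443 in neutrophils. On day 2 the HSC gate gave only -0.10 and myelocytes -0.04, against -1.30 and -1.85 on day 1. The day 1 values involve late rapamycin replicate 1, the mouse that stood apart in myelocytes. Each of the mean differences rests on 2 mice against 2.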

How the results depend on the processing

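The counts of treatment calls moved with most settings. Folds that were not called turned with single mice: for late rapamycin against tamoxifen, members above 0 went from 50 of 76 to 21 in the HSC gate without late rapamycin replicate 1, and from 19 to 56 in monocytes without its replicate 2. Monocyte calls against the HSC gate went from 18 higher and 8 lower to 2 and 56 with plain totals. Tamoxifen+rapamycin against tamoxifen (4 calls) gave 1 with DESeq2, 8 with totals of UMIs outside the members, 26 with no low-count filter, 0 with no replicate block, 1 with the hashtag ratio call and 0 in cells without division genes. Late rapamycin against tamoxifen (17) gave 7, 30, 41, 4, 10 and 1 under the same settings. Tamoxifen+rapamycin against late rapamycin (3) gave 1 with DESeq2, 10 with no filter, 0 with no replicate block and 0 in cells without division genes. Cells without division genes left 6 gates, without the erythroid one, and the stricter cell filter left 7. Leaving out 1 mouse gave 0 to 64, 1 to 227 and 1 to 170 calls. Rps15a in MEP (late rapamycin) kept its call in all 15 alternatives, and in the erythroid gate it lost it without tamoxifen replicate 1 (edgeR adjusted p = 0.1187) or 2 (0.1771).

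The mean share difference of late rapamycin was -0.4712 points with the stricter cell filter and -0.1329 as a median over cells; that of tamoxifen+rapamycin against late rapamycin was -0.2447 as a median over cells. Against the HSC gate, MEP calls (11) were 22 with no filter, 19 with the stricter cell filter and 7 with day as the block in place of mouse. MPP calls (9) were 5 with plain totals, 5 with outside totals, 61 with no filter, 28 with the stricter gate, 43 with the stricter cell filter and 4 with the day block. Monocyte calls (26) were 46 with DESeq2, 58 with plain totals and 61 with outside totals, and pro-B calls (33) were 53, 59 and 66. Leaving out 1 mouse gave 2 to 49 MEP and 1 to 64 MPP calls.

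With 5 mice the smallest exact p is 0.0625, so leaving out any mouse ends the call of a share by construction. The differences from the HSC gate then ran from 5.54 to 6.021 (erythroid), 3.438 to 3.974 (neutrophil progenitors), 1.136 to 1.377 (MEP), 0.99 to 1.208 (MPP), -3.236 to -2.734 (monocytes), -3.707 to -3.202 (pro-B), -11.76 to -11.36 (myelocytes) and -12.65 to -12.25 (neutrophils), and those of division cells from -0.8817 to -0.6958 (MEP), -0.5357 to -0.3834 (MPP) and 2.005 to 2.288 (myelocytes). Causes of these changes were not tested. Gates rest on few UMIs per cell, 2 mice per treatment limit every treatment comparison, and neutrophils were the shallowest gate.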

Other observations

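Among the gates with under 50 cells in some mouse, megakaryocyte progenitors had a larger share than the HSC gate in every mouse. The medians of the other such gates fell between the HSC gate and neutrophils. None of these differences was tested. Megakaryocyte progenitors (351 cells) had a ribosomal protein share of 15.9% in the lowest mouse, 16.8% as the median and 17.3% in the highest. T and NK cells (185 cells) gave 14.0%, 14.9% and 15.8%, and basophil and mast cell progenitors (73 cells) 12.4%, 13.7% and 15.9%. Mature B cells (365 cells) gave 10.3%, 11.5% and 12.8%, and plasmacytoid dendritic cells (223 cells) 10.0%, 10.9% and 12.01%.

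Rps15a and Rps13 lie near each other on chromosome 7, and genes around them differed between the same mice. Within 10 megabases of Rps15a, a window chosen after the values were seen, 7 of 146 genes tested in the erythroid gate were called in late rapamycin against tamoxifen, 4.79% against 1.39% of all genes. They were Rps15a (−0.43) and Rps13 (−0.18), Xylt1 (−2.31), Plekha7 (+2.88), Sox6 (+0.36), Knop1 (+0.34) and Spn (−0.33), as log2 fold changes by edgeR. Plekha7 lies at chr7:116123485-116308376 and Xylt1 at chr7:117380979-117673580 (GRCm38), on either side of Rps13. In MEP the called genes of the window were 4 of 141 (2.84% against 1.27%): Rps15a (−0.43), Plekha7 (+2.80), Xylt1 (−0.87) and Sox6 (+0.75). Tamoxifen+rapamycin against tamoxifen in the erythroid gate gave 4 of 146 (2.74% against 0.722%), with Plekha7 at +2.06, Xylt1 at −0.85, Sox6 at +0.57 and Rps15a at −0.23. In MEP, tamoxifen+rapamycin against tamoxifen gave 2 of 141 (1.42% against 0.419%), Plekha7 at +1.943 and Zg16 at +0.645, without Rps15a. The window was centred on Rps15a because it was called. Where Rps15a is among the genes counted, the share is raised by that choice, so these shares are a description only. The 2 comparisons against tamoxifen share the tamoxifen mice. With 2 mice in a group, a difference between individual mice in this region and a treatment difference cannot be told apart.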
